A study of Mus musculus with 12 samples.

Results

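Kidney gene expression was compared between all libraries from busulfan-treated mice and all libraries from mice without busulfan. The comparison took in 12 of the 12 libraries of the series, 6 with busulfan and 6 without, and they were assigned by the descriptions in their labels. All came from whole kidneys of mice of the outbred ICR strain at 8 weeks of age. The 6 busulfan libraries were 3 that received busulfan alone (the busulfan group) and 3 that received busulfan plus L.J. at 10 mg/kg. The 6 others were 3 labelled as controls and 3 that received L.J. alone at 10 mg/kg. On each side, 3 of 6 libraries therefore carried L.J., a treatment that the labels do not explain and that the series' design text replaces with FMT. The busulfan dose, its route, the time after treatment, the sex of the mice and any genetic modification are not given in the labels. The labels also do not say whether the 3 replicates of a group were separate animals, so every p-value measures the spread between libraries, which may be technical.

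Busulfan alkylates and crosslinks DNA and is used to deplete bone marrow before transplantation. Crosslinks are repaired with the help of the Fanconi anaemia proteins, and DNA damage stabilises the transcription factor p53, which switches on genes of cell cycle arrest, apoptosis and repair. The kidney consists mostly of tubule cells, among them the proximal tubule, the thick ascending limb and the principal and intercalated cells of the collecting duct, and it also secretes the enzyme renin. In whole-tissue RNA, fewer cells of a type and less RNA per cell cannot be told apart.

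Values were FPKM, fragment numbers divided by gene length and by the library's mapped reads, so absolute depth is unknown. The FPKM sums ran from 481937 to 541844 per library, and steps between low values put relative depth between 0.95 and 1.07. Those steps came from 73 genes kept only where their values above 0 were close to each other. That choice itself limits the range, so equal depth was not established. Kidney identity was clear in each library from the proximal tubule transporter gene Slc34a1, at 2225 to 3630.7 FPKM. Fat and liver markers were present and are given with the blood cell markers, while 5 of the 12 adrenal markers (Cyp11b1, Cyp11b2, Nr5a1, Th and Pnmt) were at 0 in every library. The libraries of the busulfan group stood apart from each other. On the first principal component, with 41.8% of the variance, the scores of busulfan 1 and 2 were 40.4 and 47.3, that of busulfan 3 was -10.5, and the other 9 libraries scored between -16.9 and -1.85. In busulfan 3, longer transcripts also had lower values (Spearman correlation with length over genes -0.507, where the other 11 libraries had -0.0655 to 0.299).

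The first question was whether busulfan shifted any gene across all 12 libraries, with L.J. as a covariate. Of the 12281 genes tested, 0 passed a Benjamini-Hochberg adjusted p under 0.05 with limma, which is 0.0% of the genes. The lowest adjusted p was 0.441. At an unadjusted p under 0.05 there were 1351 genes (11.0%), of which 1027 (8.36%) were higher and 324 (2.64%) lower with busulfan. The count of 0 depended on how libraries were weighted: limma's array weights, as planned, gave 4922 genes with the default estimator, which stopped before it converged and gave busulfan 1 a weight of 11 and busulfan 3 a weight of 0.0941. A gene-by-gene estimator of the weights, chosen after those calls had been seen, gave 0 genes. Leaving out the first library of busulfan plus L.J. gave 2 genes, the gamma-glutamyl transferase family gene Ggt6 (log2 change 1.82, limma adjusted p = 0.0342) and the zinc finger gene Zbtb8b (-1.21, limma adjusted p = 0.0342).

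The comparison then asked which genes lay on the same side in all 6 busulfan libraries. In 103 genes the 3 busulfan libraries lay above the 3 controls and the 3 libraries with busulfan plus L.J. lay above the 3 with L.J. alone, and in 17 genes they lay below in both. These are 0.839% and 0.138% of the genes tested. Genes with no overlap in both strata but in opposite directions were nearly as many, 111 (0.904%). Without regard to L.J., 48 genes (0.391%) had no overlap over 6 against 6 libraries, 41 higher (0.334%) and 7 lower (0.057%). Within a stratum, 2705 genes (22.0%) lay apart between busulfan and control, and 947 (7.71%) in the stratum with L.J. The 120 genes apart in both became 449 without busulfan 3 and 358 without the first library of busulfan plus L.J., where fewer libraries had to lie apart. The split between higher and lower depended on scaling: it was 103 to 17 as deposited, 63 to 43 after quantile normalization, 55 to 70 with median-ratio size factors and 78 to 38 after correction for transcript length and GC content. The genes changed as well: of the 103 higher genes 27, 28 and 30 were among the higher genes under these settings in turn, and of the 17 lower genes 10, 13 and 6. As deposited, the median gene had a log2 change of 0.05, and 64.9% of the genes lay above 0.

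Under all 4 of these scalings, 15 genes stayed higher and 4 stayed lower without overlap. The 15 were Med31, Ren1, Phlda3, Gstp3, Fbxw4, Ropn1l, Tmem265, Smtnl2, Serpine2, Smad7, Slc35e2, Cdkn1a, Ankrd6, Foxq1 and Rbm5, and the 4 were Snap29, Bicd1, Sumf1 and Hoxa7. Most shifts were small. The median log2 change was 0.27 over the 103 genes and -0.25 over the 17, and 14 of the 103 reached 0.5. Of the named genes, Ephx1, Ell2, Eogt, Rnf141 and Uggt1 lost their separation after the length and GC correction, Usp8 and Ugt1a2 after quantile normalization, Lamp2 under both, and Arhgap42 with median-ratio size factors and after the length and GC correction. Ggt6, Btbd6, Fdxr, Mad2l2, Rad1, Akr1b7, Tgoln1 and C2cd2 lost theirs under all 3 other scalings, and Chst8 was not tested with median-ratio size factors. The median of the 103 genes was 0.37, 0.43 and 0.21 above the control mean in busulfan 1, 2 and 3, and 0.17, 0.18 and 0.21 above the L.J. mean in the 3 libraries of busulfan plus L.J. Since the rule itself fixed these directions, the medians describe the genes and test nothing. The 103 genes had a median transcript length of 2966 bp and a GC content of 53.7%, the 17 lower genes 4424 bp and 45.9%, and all tested genes 3302 bp and 49.7%. The part of the length and GC trend of busulfan 3 in this contrast was not tested gene by gene.

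**Figure D1:**
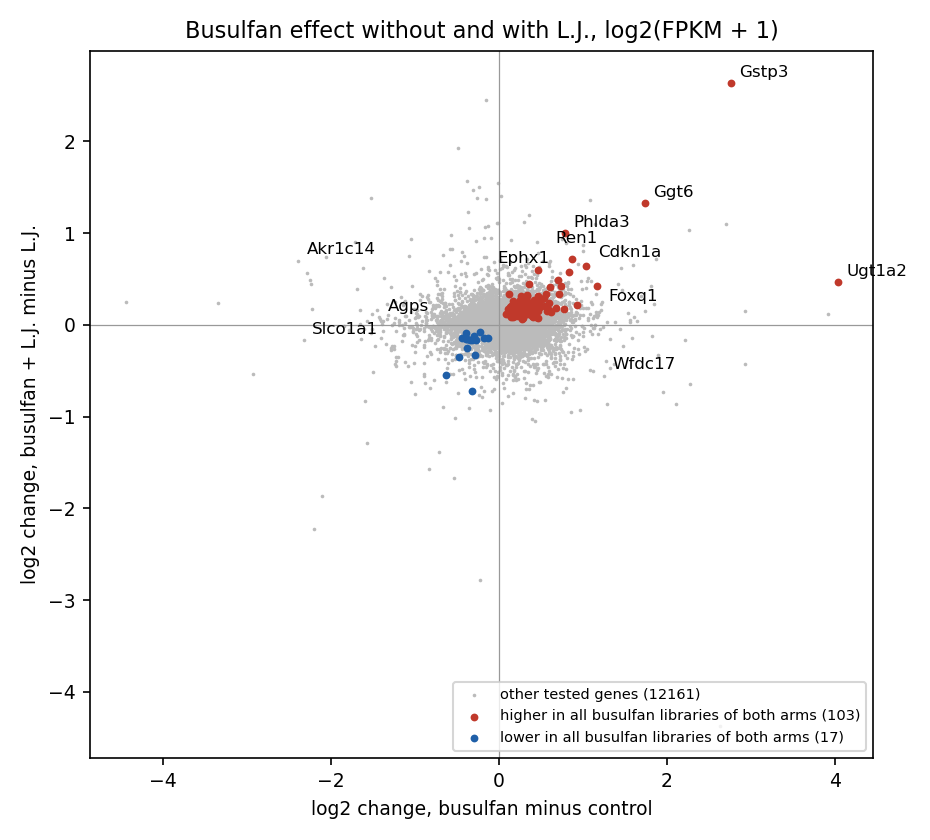
Each point is a tested gene, with the log2 change of busulfan minus control on the x axis and of busulfan plus L.J. minus L.J. on the y axis, on the log2(FPKM + 1) scale. Red points are the 103 genes higher and blue points the 17 genes lower without overlap in both strata, and Gstp3, Ggt6 and Phlda3 lie farthest out along the upper right diagonal.

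Of the p53 target list, Cdkn1a, Phlda3 and Ephx1 were among the higher genes. Cdkn1a was also a member of the glucocorticoid response list and Ephx1 of the NRF2 target list. Cdkn1a (chromosome 17, 29090979 to 29100722, GRCm38) encodes p21, the cell cycle inhibitor that p53 induces. Phlda3 (chromosome 1, 135766085 to 135769134) encodes a p53-induced repressor of Akt signalling. Ephx1 (chromosome 1, 180989556 to 181017569) encodes the microsomal epoxide hydrolase, which detoxifies epoxides. The promoter windows of these genes are shown because p53 acts through a paired DNA element, and 1 form of its core is CATGNNNNNNCATG. Each window runs from 250 bases before to 50 after an annotated start (RefSeq, GRCm38.p6), is written 5′ to 3′ along the gene, and has that core in capitals where it occurs. The Cdkn1a window is chr17:29090729-29091028 on the plus strand, the Phlda3 window chr1:135765835-135766134 on the plus strand and the Ephx1 window chr1:181017520-181017819 on the minus strand.
Cdkn1a: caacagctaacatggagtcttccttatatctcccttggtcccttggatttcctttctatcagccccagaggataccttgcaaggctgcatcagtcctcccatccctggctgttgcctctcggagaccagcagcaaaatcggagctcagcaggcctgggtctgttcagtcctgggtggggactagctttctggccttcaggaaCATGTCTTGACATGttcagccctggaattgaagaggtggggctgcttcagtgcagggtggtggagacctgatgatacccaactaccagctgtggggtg
Phlda3: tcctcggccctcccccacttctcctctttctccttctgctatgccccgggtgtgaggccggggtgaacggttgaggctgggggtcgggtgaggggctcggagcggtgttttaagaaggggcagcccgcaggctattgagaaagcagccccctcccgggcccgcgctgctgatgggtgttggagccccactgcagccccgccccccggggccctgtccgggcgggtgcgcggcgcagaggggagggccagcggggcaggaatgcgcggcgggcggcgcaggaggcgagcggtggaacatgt
Ephx1: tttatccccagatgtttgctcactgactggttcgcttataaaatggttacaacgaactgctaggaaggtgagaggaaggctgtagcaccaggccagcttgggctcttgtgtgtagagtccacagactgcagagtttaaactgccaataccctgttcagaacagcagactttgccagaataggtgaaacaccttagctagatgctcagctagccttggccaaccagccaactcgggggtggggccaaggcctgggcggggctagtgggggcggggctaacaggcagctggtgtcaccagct

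The Cdkn1a window held the core with its first base 48 bases before the start, in 1 of the 2 windows annotated for the gene, and neither of the others held it. A window without this core may hold the p53 element in another form. Of 32851 promoter windows, 234 (0.712%) held the core, and of 12551 windows of tested genes 44 (0.351%). Of the 103 higher genes 86 had a window, and the core was in 3 of their 115 windows (2.61%), from Cdkn1a and Snx22, so 1 gene is counted more than once. Of the 17 lower genes 14 had a window, and the core was in 0 of their 15. Snx22 passed the filter on low values only through its busulfan libraries, and the core was chosen for marking after all motifs had been counted. The shares therefore describe these windows and test nothing. In all, 4 motifs were searched on both strands. The p53 half-site, which overlaps the core, was in 6.09% of the higher genes' windows and 7.0% of tested genes' windows. The antioxidant response element TGACNNNGC was in 15.7% and 14.3%, and the E-box CACGTG in 5.22% and 9.78%. Of the 29 windows of the p53 target list, 3.45% held the core and 34.5% the half-site. In the same windows the antioxidant response element was in 10.3% and the E-box in 20.7%. A match describes letters in a window and is not a measured binding site.

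Cdkn1a was at 10.41, 10.05 and 9.37 FPKM in control, 13.33, 39.28 and 18.50 in busulfan, 12.04, 5.97 and 10.10 in L.J. alone, and 16.10, 13.57 and 14.53 in busulfan plus L.J. All 6 busulfan libraries lay above all 6 others, with busulfan 2 by far the highest. The log2 change was 0.84 (SE 0.22, limma adjusted p = 0.445), and an exact two-sided permutation test within L.J. strata gave p = 0.005, the smallest value that its 400 arrangements allow. Cdkn1a was 1 of 12 genes chosen for that test with earlier results known, and its p is not adjusted.

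Phlda3 was at 2.11, 1.27 and 2.36 FPKM in control, 2.95, 6.42 and 3.18 in busulfan, 2.14, 1.42 and 1.57 in L.J. alone, and 5.09, 4.64 and 3.55 in busulfan plus L.J. The lowest busulfan library was above the highest library without busulfan, and the shift was as large with L.J. (log2 change 1.00, SE 0.24) as without it (0.79, SE 0.24). Over all 12 libraries the log2 change was 0.89 (SE 0.17, limma adjusted p = 0.441). Ephx1 was at 17.95, 16.45 and 15.62 in control, 28.06, 51.92 and 19.08 in busulfan, 12.19, 16.02 and 15.45 in L.J. alone, and 24.40, 20.56 and 21.54 in busulfan plus L.J. It too had no overlap over 6 against 6, with busulfan 3 closest to the controls (log2 change 0.71, SE 0.18, limma adjusted p = 0.445). Fdxr, the mitochondrial ferredoxin reductase gene and a known p53 target outside the list, was picked out after its values were seen. It was at 3.75 to 4.28 FPKM in control, 5.55 to 6.09 in busulfan, 4.04 to 4.37 in L.J. alone and 4.45 to 5.38 in busulfan plus L.J., again without overlap over 6 against 6.

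**Figure D2:**
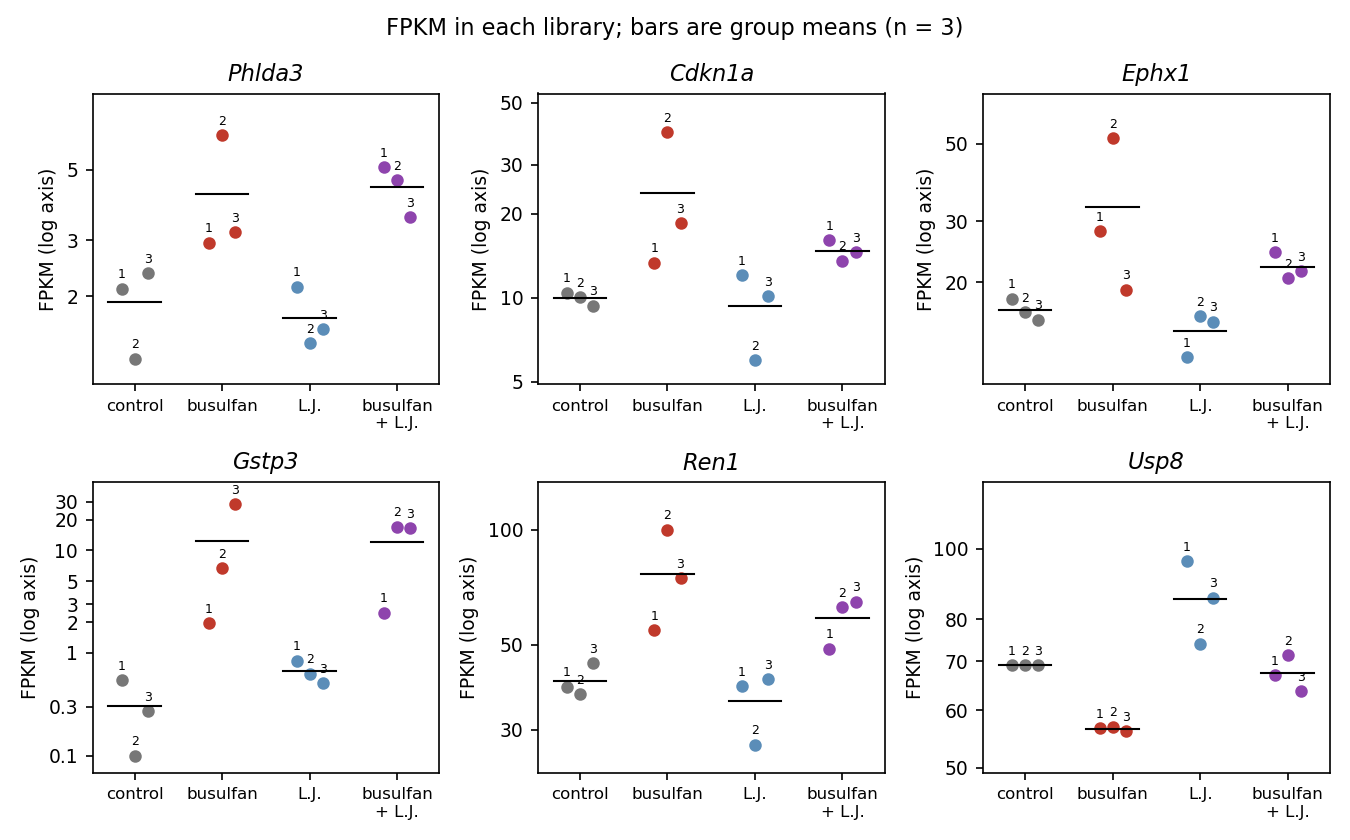
FPKM per library on a log axis for 6 genes in the 4 groups, with the replicate number beside each point and a bar at the group mean (n = 3). In Phlda3, Cdkn1a, Ephx1, Gstp3 and Ren1 all busulfan libraries lie above all others, while Usp8 is lower with busulfan within each L.J. stratum only.

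Across the p53 target list, 27 of 30 members were tested. None was called, 22 had a log2 change above 0, and 17 were above 0 in both strata against 2 below 0 in both. Over all tested genes 38.6% were above 0 in both strata and 15.1% below. The median log2 change of the list was 0.17, close in both strata (0.17 without L.J. and 0.16 with it), against 0.05 over all tested genes. The 3 genes without overlap were Cdkn1a, Phlda3 and Ephx1, beside 0.977% of all tested genes, and 6 of 27 members had an unadjusted p under 0.05, against 11.0% of all tested genes. By library the list's median was 0.18, 0.45 and -0.04 in busulfan 1, 2 and 3 and 0.19, 0.05 and 0.15 in the 3 libraries of busulfan plus L.J. Busulfan 3 thus lay at the control level for the list's median although its Cdkn1a and Phlda3 were above every control. Mdm2, which encodes the ubiquitin ligase that degrades p53, was at 12.42 to 13.32 FPKM in control, 14.30 to 18.54 in busulfan, 13.28 to 15.54 in L.J. alone and 15.30 to 18.60 in busulfan plus L.J. Its groups did not overlap without L.J. but did with it, and the exact two-sided permutation test gave an unadjusted p = 0.01 (log2 change 0.22, SE 0.08, limma adjusted p = 0.445). The other 23 members ranged in log2 change from 0.47 in the nucleotide excision repair gene Ddb2 and in Gdf15, a secreted stress factor gene, to -0.10 in the apoptosis gene Perp.

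Genes of crosslink repair had a median near that of all genes. In the Fanconi and crosslink repair list, 19 of 30 members were tested, 0 were called and the median log2 change was 0.07. Over all tested genes 0.977% lacked overlap in both strata. Mad2l2, a subunit of the translesion polymerase zeta and of shieldin, was the only member without overlap, at 7.35 to 8.80 FPKM in control, 10.21 to 13.44 in busulfan, 8.61 to 8.83 in L.J. alone and 9.13 to 10.96 in busulfan plus L.J. (log2 change 0.31, SE 0.09, limma adjusted p = 0.445). Slx4, a scaffold for structure-specific nucleases, was at 5.70 to 6.91, 6.28 to 8.86, 5.30 to 6.06 and 7.12 to 7.81 FPKM in the same order, with overlap between busulfan and control only. The checkpoint clamp gene Rad1, picked after its values were seen, had no overlap over 6 against 6 (6.06 to 7.64 without busulfan, 7.68 to 11.89 with it). Its busulfan values included 7.68 and 7.85, just above the highest library without the drug.

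Among the genes named by the rule (smallest p without overlap), the largest log2 change was in Gstp3, a pi-class glutathione transferase gene (chromosome 19, 4057470 to 4059605). It was at 0.54, 0.10 and 0.27 FPKM in control, 1.96, 6.73 and 28.08 in busulfan, 0.84, 0.63 and 0.51 in L.J. alone, and 2.48, 17.04 and 16.39 in busulfan plus L.J. Each library without busulfan was below 1 FPKM and each busulfan library was above it, but the busulfan values themselves spread widely (log2 change 2.70, SE 0.50, limma adjusted p = 0.441). Gstp3 passed the filter on low values only through its busulfan libraries, and close paralogs can share its reads. The paralog Gstp1 did not follow it, at 333 to 481 FPKM in control, 217 to 303 in busulfan, 252 to 469 in L.J. alone and 219 to 345 in busulfan plus L.J. Ggt6 was at 4.12, 4.06 and 0.96 in control, 9.45, 14.26 and 10.80 in busulfan, 0.42, 0.34 and 0.16 in L.J. alone, and 0.46, 4.12 and 3.69 in busulfan plus L.J. It was separated within each stratum but not across them, since L.J. libraries were lower throughout and 1 of the busulfan plus L.J. libraries lay at 0.46, just above 0.42.

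The glutathione transferase list, which does not include Gstp3, did not share this pattern. Of 19 tested members 16 had a log2 change above 0, but the median was 0.61 without L.J. and -0.03 with it, and no member lacked overlap in both strata. Over all tested genes 64.9% had a log2 change above 0 and 0.977% lacked overlap in both strata. The microsomal transferase gene Mgst1 was at 24.07 to 26.79 FPKM in control and 41.76 to 136.64 in busulfan, and at 19.13 to 30.97 in L.J. alone and 23.77 to 34.36 in busulfan plus L.J. Its groups were apart without L.J. and overlapped with it.

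Ren1, the renin gene (chromosome 1, 133350674 to 133360320), was at 38.86, 37.13 and 44.78 FPKM in control, 54.70, 100.06 and 74.70 in busulfan, 39.00, 27.41 and 40.65 in L.J. alone, and 48.88, 62.84 and 64.85 in busulfan plus L.J. All 6 busulfan libraries lay above 48 FPKM and all others below 45. The log2 change was 0.79 (SE 0.14, limma adjusted p = 0.441), and 0.87 and 0.72 without and with L.J. Its near copy Ren2 was listed at 0 in 11 of 12 libraries, and how the authors split reads between the copies is not given in the sources used here. Med31, a subunit of the Mediator complex (chromosome 11, 72211724 to 72215592), had the lowest p of all genes tested. It was at 4.06, 4.50 and 3.48 FPKM in control, 6.50, 6.14 and 7.21 in busulfan, 3.39, 3.96 and 4.29 in L.J. alone, and 5.63, 4.72 and 6.13 in busulfan plus L.J. (log2 change 0.51, SE 0.09, unadjusted p = 8.24e-05, limma adjusted p = 0.441). The groups were apart over 6 against 6, and Med31 also passed the test in busulfan against control (limma adjusted p = 0.0441).

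Further higher genes named by the rule were of varied function and small shift. They were the F-box gene Fbxw4 (log2 change 0.41), the ropporin-like gene Ropn1l (0.33), the membrane protein gene Tmem265 (0.45), Btbd6 (0.39), Smtnl2 (0.58), the protease inhibitor gene Serpine2 (0.54) and the sulfotransferase gene Chst8 (0.39). Their limma adjusted p was 0.445. Chst8 was under 1 FPKM in each library without busulfan and passed the filter on low values only through its busulfan libraries, as did Gstp3, Snx22 and Ugt1a2 among the 103 genes. Serpine2 had 4.47 to 5.88 FPKM in control, 6.43 to 10.17 in busulfan, 2.34 to 3.0 in L.J. alone and 3.72 to 5.43 in busulfan plus L.J. The L.J. libraries were lower for Serpine2 whether or not busulfan was given.

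Foxq1 and Ugt1a2, both picked after their values were seen, show how far the busulfan libraries could differ. Foxq1, a forkhead transcription factor gene, was at 9.65, 16.38 and 3.62 FPKM in busulfan against 2.94 to 3.40 in control, and at 4.83, 4.24 and 3.80 in busulfan plus L.J. against 2.63 to 3.28 in L.J. alone. Ugt1a2, a glucuronosyltransferase gene, was at 61.53, 72.69 and 1.43 in busulfan against 0.27 to 0.54 in control, and at 0.22 to 0.97 against 0.06 to 0.18 with L.J. Neither had overlap within a stratum, yet busulfan 3 and the libraries with L.J. were near the level without busulfan. Ugt1a2 passed the filter on low values only through its busulfan libraries, and the Ugt1a genes share exons, so its reads are uncertain.

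Lower genes were fewer than higher ones as deposited, though not with median-ratio size factors. Usp8, a deubiquitinase of endosomal sorting (chromosome 2, 126707201 to 126759314), was at 69.19, 69.20 and 69.12 FPKM in control, 56.66, 56.95 and 56.20 in busulfan, 96.14, 74.08 and 85.63 in L.J. alone, and 67.02, 71.42 and 63.75 in busulfan plus L.J. It was lower with busulfan in each stratum (log2 change -0.31, SE 0.07, limma adjusted p = 0.445), while busulfan plus L.J. overlapped the controls. Snap29, a SNARE protein gene of membrane fusion (chromosome 16, 17406000 to 17430826), was at 25.44 to 26.72 in control, 19.03 to 20.42 in busulfan, 23.25 to 26.36 in L.J. alone and 21.95 to 22.83 in busulfan plus L.J. All 6 busulfan libraries lay below the others, and Snap29 was also called in busulfan against control (log2 change -0.38, limma adjusted p = 0.0402).

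Lamp2, a lysosomal membrane protein gene on the X chromosome (38399647 to 38456460), was at 608 to 628 FPKM in control, 492.8 to 522 in busulfan, 615 to 682 in L.J. alone and 540 to 583 in busulfan plus L.J. (log2 change -0.22, SE 0.07, limma adjusted p = 0.445). Its busulfan libraries lay below all others over 6 against 6. The other lower genes named by the rule were the dynein adaptor gene Bicd1 (-0.41), the elongation factor gene Ell2 (-0.27), Arhgap42 (-0.24), the glycosyltransferase gene Eogt (-0.24), Rnf141 (-0.25), the sulfatase-activating enzyme gene Sumf1 (-0.21), the trans-Golgi gene Tgoln1 (-0.29), C2cd2 (-0.23) and the glycoprotein folding sensor gene Uggt1 (-0.16). All 12 lower genes kept their direction under each alternative run. Leaving out or reweighting libraries could not have reversed them, since they were chosen as apart in both strata. Of these 12, only Snap29, Bicd1 and Sumf1 stayed apart under all 4 scalings.

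**Figure D3:**
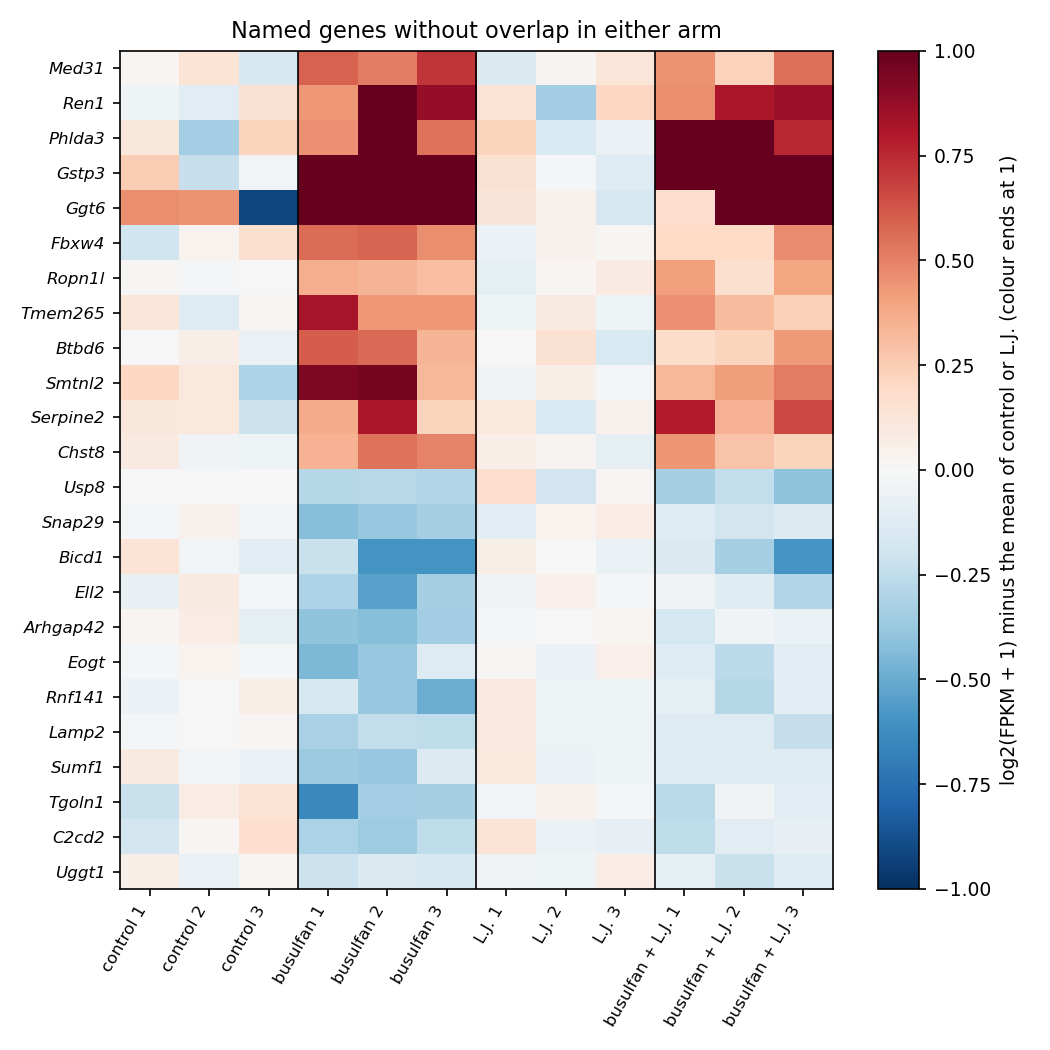
Colour gives log2(FPKM + 1) of each library minus the mean of its stratum without busulfan (control or L.J.), for the 12 higher and 12 lower genes named by the rule. The busulfan and busulfan plus L.J. columns have one colour within a row, red for higher and blue for lower, and Gstp3, Ggt6, Phlda3 and Ren1 pass the colour limit of 1 in at least 1 library.

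Set side by side, the genes called without L.J. had the same sign with L.J. about as often as not. Busulfan against control called 177 genes (1.44%), 89 higher (0.725%) and 88 lower (0.717%), where 22.7% of genes had an unadjusted p under 0.05, while busulfan plus L.J. against L.J. called 0 (0.0%) with limma, where 240 genes (1.95%) had an unadjusted p under 0.05. These comparisons share no libraries, but the shared estimate of spread covers both. Of the 177 genes 86 (48.6%) had the same sign with L.J., against 53.7% of all tested genes. The 89 higher genes had a median log2 change of 0.62 without L.J. and 0.01 with it, and the 88 lower genes -0.58 and 0.02. Since the genes were chosen by their calls without L.J., a smaller change with L.J. would follow in part from that choice. In 10 of the 177 (5.65%) the groups lay apart in the same direction with L.J., and in 15 (8.48%) in the opposite one, against 4.63% and 3.09% of all tested genes. The count of 177 was 3989 without busulfan 3 and 0 after the length and GC correction.

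The 10 called genes apart in both strata were Med31, Smad7, Snap29, Fdxr, Golt1a, Jarid2, Slc5a9, Arhgap42, Emg1 and Atp5g2. Smad7, an inhibitor of TGF-beta signalling, had log2 changes of 0.59 without L.J. and 0.24 with it (limma adjusted p = 0.0402 and 0.9999). Slc5a9, a sodium-coupled sugar transporter gene, had 0.93 and 0.22. Jarid2, a cofactor of Polycomb repressive complex 2, had 0.62 and 0.14. In these genes the change with L.J. was the smaller one. They were chosen by their calls without L.J., so this describes them and is no test of a weaker effect with L.J.

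The difference between both effects was called for 2 genes (0.0163%), both lower with L.J., with unadjusted p under 0.05 for 1437 (11.7%). Wfdc17, a whey acidic protein domain gene, was at 0.81, 0.47 and 0.61 FPKM in control, 2.76, 3.03 and 2.80 in busulfan, 1.41, 1.40 and 1.22 in L.J. alone, and 0.34, 0.92 and 0.58 in busulfan plus L.J. (difference -1.80, SE 0.21, limma adjusted p = 0.0252). It was higher with busulfan alone and lower with busulfan plus L.J. Wfdc17 was called in 7 of 21 alternatives, with adjusted p from 0.000208 to 0.306 in limma, and lost its call with a pseudocount of 0.1, quantile normalization, the replicate block, the length and GC correction, and with 9 of the 12 libraries when left out in turn. Phlda1, a pleckstrin homology-like domain gene, was at 6.97 to 7.10, 10.39 to 12.07, 8.31 to 9.26 and 6.47 to 7.10 FPKM in the same order (difference -0.94, SE 0.12, limma adjusted p = 0.0467). Its directions were opposite in the same way. Phlda1 was called in 3 of 21 alternatives, without busulfan 3 and under both library weights.

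Akr1c14, an aldo-keto reductase gene of steroid metabolism, had values in opposite directions in the strata. It was at 192.45 to 229.4 FPKM in control against 20.77 to 100.14 in busulfan, and at 101.18 to 128.69 in L.J. alone against 166.17 to 207.11 in busulfan plus L.J. The groups lay apart in each stratum, and the difference between effects was not called (3.08, SE 0.58, limma adjusted p = 0.222). The exact two-sided permutation test over all 12 libraries gave p = 0.245. Zbtb8b was lower with busulfan in both strata, at 7.38 to 8.48 against 19.11 to 28.44 and at 11.21 to 24.75 against 18.28 to 27.79 (exact permutation p = 0.015), with overlap in the second. For the lipid hydrolase gene Abhd2 the exact permutation p was 0.03, and its values overlapped with L.J., at 27.79 to 30.41 against 27.58 to 31.19. Zbtb8b and Abhd2 were also called in busulfan against control (limma adjusted p = 0.0364 and 0.0137). Both were chosen for the exact test with earlier results known, so their unadjusted exact p-values give no separate support.

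Of the tubular injury markers, Havcr1 and Lcn2 overlapped in both strata, while Vim, C3, Krt8 and Krt18 lay apart between busulfan and control only and Clu with L.J. only. Over all tested genes 22.0% lay apart between busulfan and control and 7.71% with L.J., and the list was not tested against these shares. Havcr1, which encodes kidney injury molecule 1, was at 2.0 to 2.17 FPKM in control, 1.29 to 2.60 in busulfan, 2.02 to 3.38 in L.J. alone and 1.97 to 2.75 in busulfan plus L.J. (exact permutation p = 0.525). Lcn2, which encodes NGAL, was at 0.97 to 3.06, 1.30 to 10.74, 0.67 to 6.69 and 0.33 to 4.10 in the same order (exact permutation p = 0.595). The intermediate filament gene Vim was at 18.55, 19.75 and 14.19 in busulfan against 11.63 to 12.39 in control, and at 11.61 to 20.82 in busulfan plus L.J. against 7.72 to 13.11 in L.J. alone. In the tubular injury list 16 members were tested, 11 were above 0, and the median log2 change was 0.13 over all libraries. By library the list's median was 0.33, 0.26 and 0.15 in busulfan, where no control exceeded 0.06, and 0.18, -0.14 and -0.10 in busulfan plus L.J. The remaining genes given the exact permutation test were Gsta1 (p = 0.055), Agps (0.095), Umod (0.205), Kap (0.245) and Wfdc17 (0.265). The exact p-values of all 12 genes are unadjusted, and the genes were chosen with earlier results of these data known.

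Markers of the collecting duct and the thick ascending limb had medians above 0 in both strata, and those of the distal convoluted tubule without L.J. only. The principal cell list had 11 of 11 tested members above 0 in both strata, with medians of 0.41 without L.J. and 0.14 with it. The intercalated cell list had 11 of 13 above 0 in both, with medians of 0.73 and 0.11, and the thick ascending limb list 8 of 12, with 0.36 and 0.19. The distal convoluted tubule list had 3 of 12 above 0 in both, with medians of 0.47 and -0.03. No gene of these lists was called or lacked overlap in both strata. Over all tested genes 0.977% lacked overlap in both strata and 38.6% were above 0 in both, so short lists would often hold no gene without overlap. By library, the intercalated cell median was 0.99, 1.15 and 0.01 in busulfan 1, 2 and 3, and -0.11, 0.21 and 0.28 in busulfan plus L.J. The principal cell gene Hsd11b2, which inactivates cortisol, was at 45.16 to 56.62 FPKM in control, 70.21 to 102.57 in busulfan, 39.15 to 46.96 in L.J. alone and 42.93 to 52.83 in busulfan plus L.J. It was apart without L.J. and overlapped with it. The proximal tubule list had a median of -0.01.

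**Figure D4:**
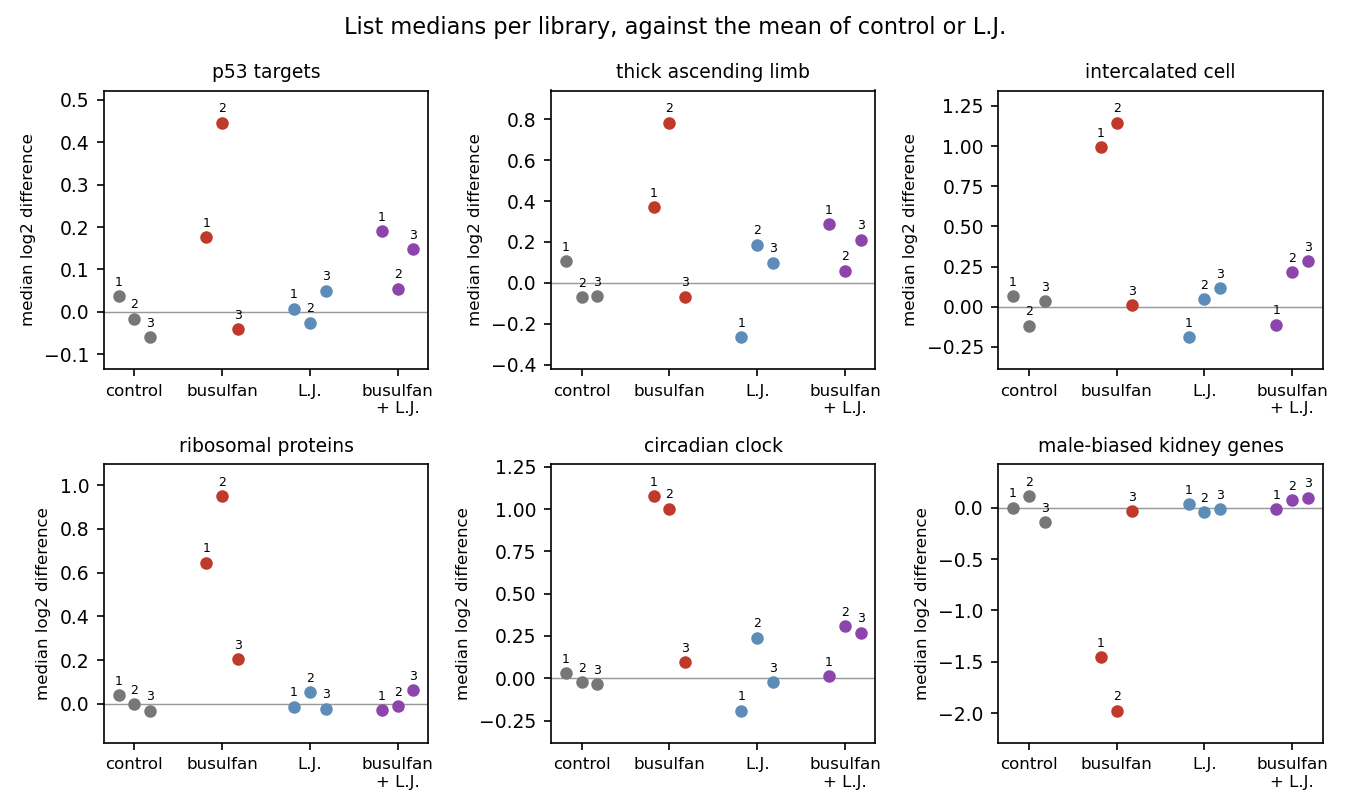
Median log2 difference of 6 gene lists in each library from the mean of control or of L.J., with replicate numbers beside the points. Busulfan 1 and 2 lie away from 0 in all 6 lists, while busulfan 3 stays near 0 in each except the ribosomal list, where it is at 0.20.

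Other lists separated busulfan 1 and 2 from the remaining libraries. The ribosomal protein list had all 35 members above 0, with medians of 0.60 without L.J. and 0.00 with it. The male-biased kidney gene list had a median of -1.07 without L.J. and 0.02 with it, and by library -1.46, -1.98 and -0.03 in busulfan 1, 2 and 3. Its member Slco1a1, an organic anion transporter gene, was at 228.94 to 292.11 FPKM in control and 28.43, 26.97 and 190.30 in busulfan, against 253.45 to 284.09 in L.J. alone and 207.59 to 272.32 in busulfan plus L.J. The circadian clock list had 11 of 18 members above 0 in both strata and 5 below 0 in both, where all tested genes had 38.6% and 15.1%, with medians of 0.53 and 0.13. Its activators Arntl (log2 change -0.77), Npas2 (-0.83) and Clock (-0.25) had values below 0. The clock gene Per2 was at 2.38 to 4.13 in control, 5.63 to 9.53 in busulfan, 3.01 to 6.34 in L.J. alone and 3.59 to 8.47 in busulfan plus L.J., and the times of day at which kidneys were taken are not given in the labels. The heat shock chaperone list had 1 of 15 members above 0 and medians of -0.18 and -0.17. By library its median was -0.42, -0.42 and 0.05 in busulfan 1, 2 and 3, and -0.075, -0.08 and -0.26 in busulfan plus L.J.

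Summed neutrophil and B and plasma cell markers were higher in the busulfan group, and those of T and NK cells and erythroid cells overlapped with control. Summed over the neutrophil list, FPKM ranged from 14.3 to 121 in busulfan, from 10.8 to 12.2 in control, from 8.40 to 9.59 in L.J. alone and from 7.23 to 9.39 in busulfan plus L.J. The B and plasma cell list summed to 92.0 to 126 in busulfan and 55.0 to 83.9 in the other groups. Only 5 of 12 neutrophil and 6 of 12 B and plasma cell markers passed the filter on low values. Such sums follow their most abundant members and do not measure cell numbers. The T and NK cell list, with 4 tested members, summed to 3.33 to 12.8 in busulfan and 7.17 to 9.62 in control, and its median by library was -0.39, -0.74 and 0.48 in busulfan 1, 2 and 3. Erythroid markers summed to 798 to 4040 in busulfan and 1883 to 3266 in control. With L.J. the erythroid sums lay apart, at 2991 to 4982 in busulfan plus L.J. and 1594 to 2261 in L.J. alone. Fat markers summed to 208 to 1004 over all libraries, and their median ranged from -1.43 to 1.51 within busulfan plus L.J. Liver markers summed to 66.9 to 153 in control and 80.9 to 136 in busulfan, but to 21.9 to 33.1 in L.J. alone and 22.1 to 49.2 in busulfan plus L.J. Their part in the differences above was not tested. Across the 40 lists, 37 had at least 5 tested members: 15 had medians above 0 in both strata, 5 below 0 in both, and 17 of opposite sign. Of 583 tested list genes, 5 (0.858%) lay apart and higher in both strata, close to the 0.839% over all tested genes, and 0 lower. The 5 were Cdkn1a, Phlda3, Ephx1, Mad2l2 and the fatty acyl-CoA thioesterase gene Acot2.

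**Figure D5:**
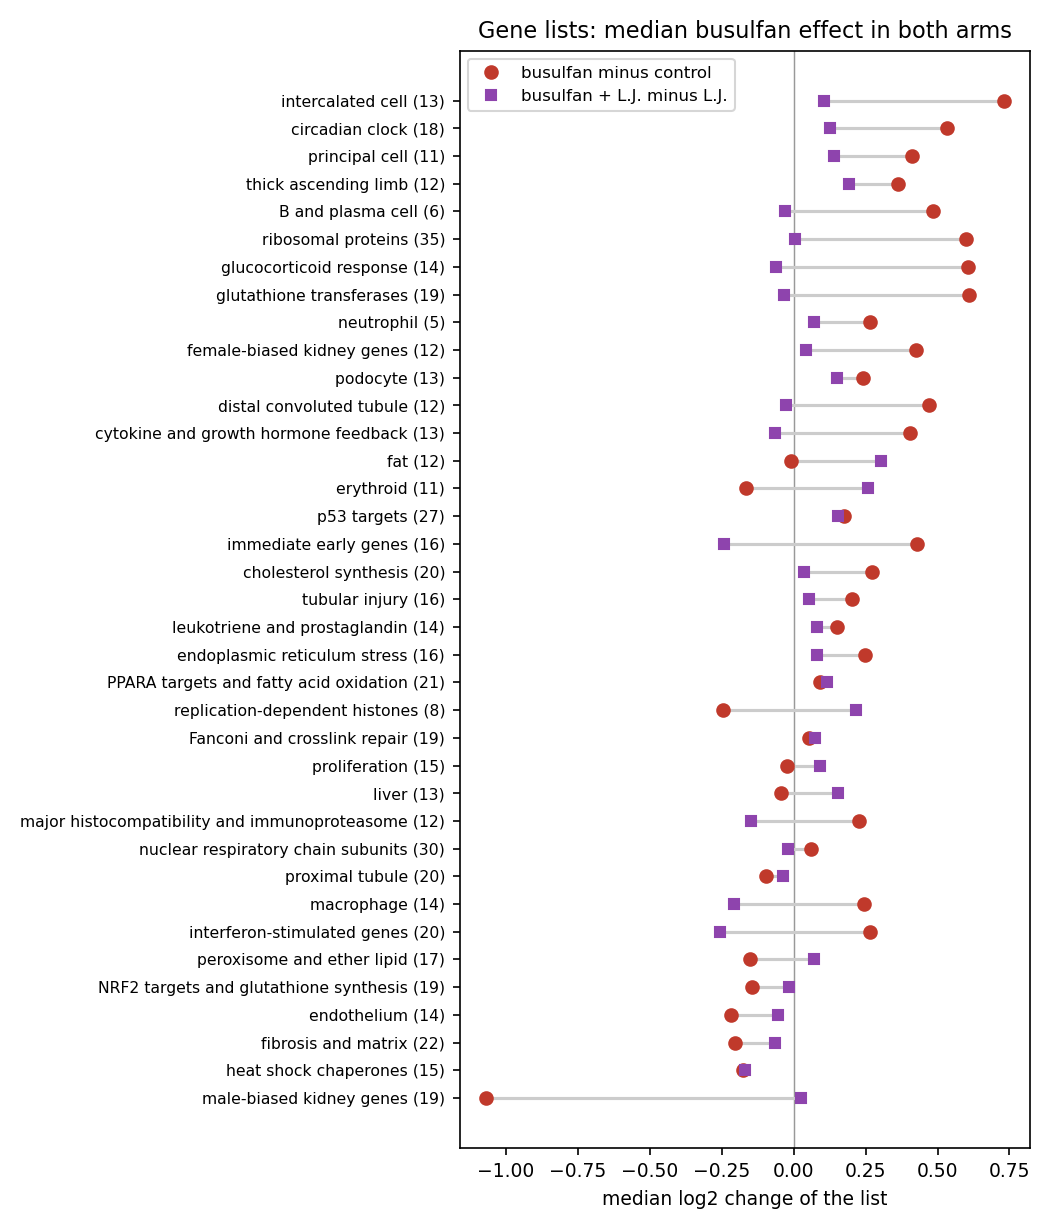
Median log2 change of the 37 gene lists with at least 5 tested members (number in brackets), for busulfan minus control (circles) and busulfan plus L.J. minus L.J. (squares), sorted by the change over all 12 libraries. The p53 target and heat shock lists have nearly the same median in both, although their single libraries differed. The male-biased list is at -1.07 and 0.02.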

How the data were processed

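RNA from frozen kidneys was extracted with Trizol and a column kit and made into Illumina libraries, per the labels' protocols. The authors deposited 1 table of FPKM values for 21004 genes in 12 libraries, per the file headers. Bowtie 0.12.2 and the mm10 build are named in the submitters' processing notes. Neither the counting tool nor the annotation nor the strand setting is given in the sources used here. Symbols stored as dates (26) were restored through their identifiers, and coordinates came from RefSeq GRCm38.p6. Depth limits low values, and no counts were available, so no count model was used.

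The 12281 genes that reached 1 FPKM in 3 or more libraries were transformed to log2(FPKM + 1), which understates changes of low genes. They were fitted with limma 3.58.1 (R 4.3.3, trend option) as L.J. plus busulfan, and with 1 mean per group for the busulfan effect without L.J., the effect with L.J., and their difference. Tests were two-sided, and calls had a Benjamini-Hochberg adjusted p under 0.05 over all tested genes. The method was tested on simulated data. The 12 genes set aside for single tests had an exact permutation test within L.J. strata. No pairing by replicate number was seen: of 18 same-numbered pairs, 0 had a correlation of deviations over 0.1. Low correlations cannot show that libraries were unmatched.

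The named genes were to be the 12 largest rises and falls among called genes without overlap in both strata. None was called, so by the same rule they were those with the smallest p among genes without overlap, predicted or unnamed genes aside. The 12 single genes, up to 4 members of a list by smallest p, and genes called in the difference were added. The rule covered all 40 lists, but members are named for 11, chosen after their values were seen. The members and lists were chosen with earlier results of these data known. Of 4 promoter motifs searched, the 1 marked in the sequences was chosen after all had been counted. Alternatives were a pseudocount of 0.1, no filter, other scalings, library weights, a replicate block, a length and GC correction and each library left out. The default library weights did not converge and gave many calls, after which a gene-by-gene estimator was added, and both are reported. Python 3.11.15, pandas 2.3.3 and matplotlib 3.10.9 served for tables and figures.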

Additional observations from a re-analysis of the deposited data

Results flagged for a closer look

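Among 164 pairs of a named gene and either the 6 busulfan or the 6 other libraries, 11 had a library far from the rest, with a gap over 0.625 of the range (Dixon). Chance alone gives about 1 in 20. These groups of 6 mix libraries with and without L.J., since groups of 3 are too small for the rule. With busulfan, Cdkn1a stood out in busulfan 2 (39.28 FPKM) and Rad1 in busulfan 1 (11.89). Without busulfan, the first L.J. library stood out in Snap29 (23.25 FPKM), Lamp2 (682.38), Casr (8.06), Vim (7.72) and C3 (8.94). The second L.J. library stood out in Cdkn1a (5.97) and Havcr1 (3.38), the third control in Arhgap42 (18.46) and the first control in Tgoln1 (85.01). The busulfan effect differed between kidneys with and without L.J. for Wfdc17 (-1.80 on the log2 scale, limma adjusted p = 0.0252) and Phlda1 (-0.94, limma adjusted p = 0.0467).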

How the results depend on the processing

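The count of 0 genes called over all 12 libraries stayed at 0 under the other pseudocount, filter, scalings, corrections, thresholds and designs. It was 4922 with default library weights, which did not converge, 0 with gene-by-gene weights, added after the data were seen, and 0 to 2 with 1 library left out. Busulfan plus L.J. against L.J. stayed at 0 throughout. Busulfan against control (177) gave 55 with no filter, 503 with quantile normalization, 381 with median-ratio factors, 7312 and 4967 with default and gene-by-gene weights, 11 with the replicate block, 0 with the length and GC correction, alone or with the block, 940 at an adjusted p under 0.1, and 0 to 3989 with 1 library left out, the highest without busulfan 3. The difference (2) gave 0 with a pseudocount of 0.1, 1 with no filter, 0 with quantile normalization, 1 with median-ratio factors, 4145 and 2194 with the weights, 0 with the block and with the length and GC correction, alone or together, and 0 to 1489 with 1 library left out, the highest without busulfan 3. Whether replicate numbers pair libraries is not known, so a call lost under the block cannot be read either way. Genes without overlap (120) numbered 131 to 449 with 1 library left out, a looser condition by construction. They were 449 without busulfan 3, 184 without control 3, 208, 273 and 235 without L.J. 1, 2 and 3, and 358, 242 and 220 without busulfan plus L.J. 1, 2 and 3. The 82 named genes kept their direction under all alternatives. For the genes chosen as apart in both strata, that choice largely fixed this outcome. The cause of these shifts was not tested. Absolute depth is unknown, so no limit for low genes can be set.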
